A study of Homo sapiens with 12 samples.

Results

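The transcripts of the mitochondrial genome were examined in MDA-MB-468, an established human breast cancer line. They were taken by name from a table of 59324 rows and came to 37 genes, which are 13 mRNAs, 2 ribosomal RNAs (rRNAs) and 22 transfer RNAs (tRNAs). RNA sequencing gave 12 libraries in 4 groups of 3. Cells of the SAHA plus sonidegib group had a pretreatment with sonidegib (10 µM, 72 h) and SAHA (10 µM, 12 h), the SAHA group had SAHA alone (10 µM, 12 h), the sonidegib group had sonidegib alone (10 µM, 72 h), and the control group is labelled only as control. SAHA (vorinostat) blocks histone deacetylases, and sonidegib blocks Smoothened, the receptor-like protein of Hedgehog signalling. All groups share the one cell line, and the labels do not say how long control cells were kept, whether sonidegib stayed on during SAHA, or whether separate cultures gave the 3 libraries of each group, and p-values therefore reflect spread among libraries only, which may be technical. Values are TPM, a share of all RNA corrected for gene length. The read depth behind them is unknown, and fewer mitochondrial genomes per cell cannot be told apart here from less RNA per genome.

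Mitochondrial DNA is copied into RNA by its own polymerase, POLRMT, with the DNA-packing factor TFAM and the promoter-melting factor TFB2M. Each strand is read as a long precursor that spans many genes, so mature levels depend largely on how the RNA is cut and how fast it decays. tRNAs punctuate the precursor and are cut out by mitochondrial RNase P (TRMT10C, HSD17B10 and PRORP) and by ELAC2, which frees the mRNAs and rRNAs between them. Precursors from the heavy-strand promoter carry both rRNAs, 12 of the mRNAs and 14 of the tRNAs, and those from the light-strand promoter carry MT-ND6 and the other 8 tRNAs. The mRNAs encode core subunits of the respiratory chain, and the rRNAs form the mitochondrial ribosome that translates them.

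Several mitochondrial mRNAs end before their stop codon is complete, and a poly(A) tail supplies the missing letters. The last 24 bases of the annotated gene are shown for 4 genes with such an end, the 2 that fell most with sonidegib and 2 others. The same is shown for 4 genes with a complete stop, because the direction of the sonidegib difference varied among these genes. The bases are from GENCODE release 29 (GRCh38, chromosome M), 5′ to 3′ on the transcribed strand. An annotated gene end need not be the mRNA end. MT-CO2, for example, ends at chrM:8269, and the next tRNA gene, MT-TK, starts at chrM:8295. Capitals mark the stop codon, or the part of it that the gene holds.
MT-CYB: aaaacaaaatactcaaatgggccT
MT-ND2: ccccttttatactaataatcttaT
MT-ND1: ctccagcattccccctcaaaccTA
MT-ND4: acatcattaccgggttttcctctT
MT-CO1: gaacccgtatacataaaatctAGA
MT-CO2: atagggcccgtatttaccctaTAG
MT-ND5: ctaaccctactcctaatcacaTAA
MT-ND6: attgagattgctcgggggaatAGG
By annotated gene end, 6 mRNAs had an incomplete stop (MT-ND1, MT-ND2, MT-CO3, MT-ND3, MT-ND4 and MT-CYB) and 7 a complete one. The last base of MT-ATP6, chrM:9207, is also the first of MT-CO3, so a cut before MT-CO3 would leave the stop of MT-ATP6 incomplete. Only MT-ND6 (chrM:14149-14673) lies on the minus strand. It abuts MT-ND5 (chrM:12337-14148) with 0 bases between them. As the strand setting of the counting was not given in the sources used here, reads of MT-ND6 and of RNA antisense to it cannot be told apart. MT-ATP8 and MT-ATP6 overlap by 46 bases, and MT-ND4L and MT-ND4 by 7 bases, so their reads can be split between them.

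All 13 mRNAs and both rRNAs were detected in every library, with the lowest value at 915 TPM. The 22 tRNAs, which are 59 to 75 bases long, were listed at 0 in all 12 libraries, so nothing can be said of them, and no comparison of heavy-strand with light-strand tRNAs was possible. The 13 mRNAs together held 8.74 ± 0.922% of all TPM with SAHA plus sonidegib, 9.66 ± 0.782% with SAHA, 6.86 ± 0.526% with sonidegib and 6.82 ± 0.676% in control (mean ± SD, n = 3 each, as for all means below). The rRNAs held 2.61 ± 0.231%, 1.24 ± 0.0942%, 2.22 ± 0.223% and 0.616 ± 0.0523% in the same order of groups. The mRNA sum was close in sonidegib and control libraries while the rRNA sum was not, and the plot of levels by library shows opposite differences of single genes behind the near-equal mRNA sums.

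**Figure D1:**
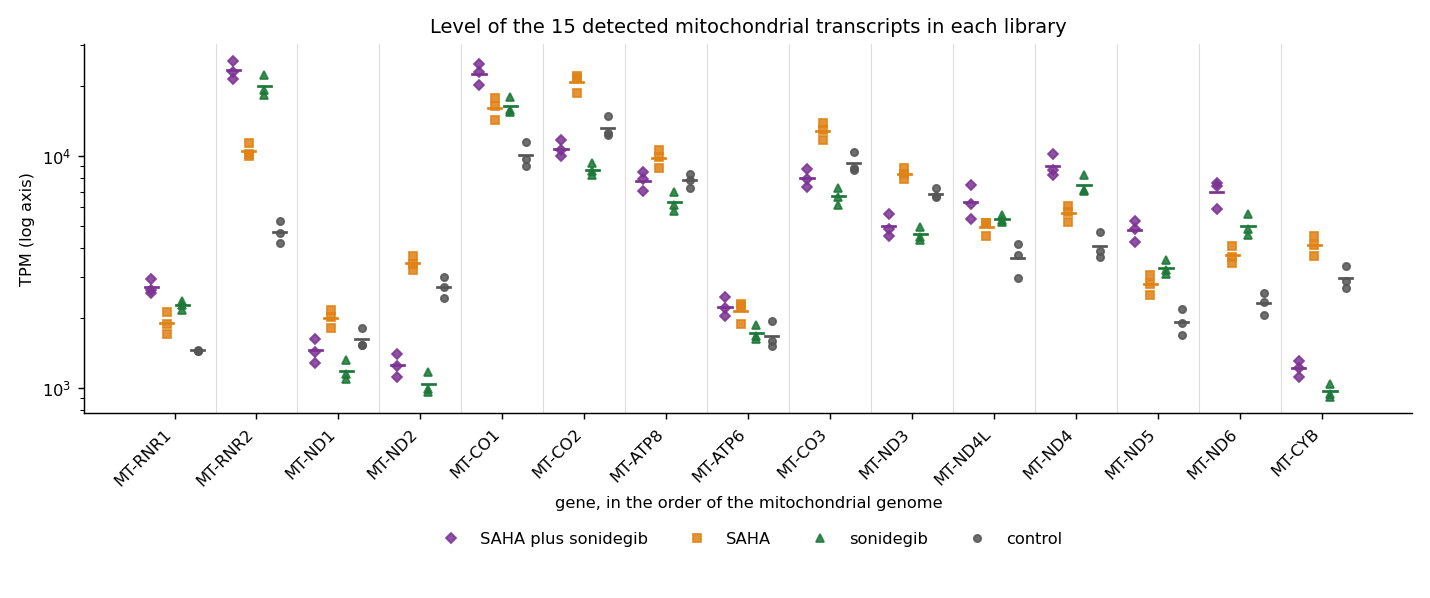
TPM on a log axis of the 15 detected mitochondrial transcripts in each of the 12 libraries, in genome order, with 1 marker per library and a bar at each group mean. MT-RNR2 is at or above 18300.3 TPM in all 6 libraries with sonidegib and between 4208 and 5249 TPM in control, whereas MT-CYB and MT-ND2 are lower in all 6 libraries with sonidegib than in any without it.

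SAHA alone was compared with control, and every mitochondrial mRNA was higher with SAHA. All 13 passed the test (adjusted p under 0.05, limma over 13937 genes), against 31.8% of all genes higher and 26.9% lower, and all log2 changes lay between 0.29 and 0.68. MT-ND6, a membrane subunit of complex I, had the largest change, with 4071, 3643 and 3439 TPM in SAHA libraries, against 2551, 2057 and 2352 TPM in control libraries (log2 change 0.68 ± 0.12, adjusted p = 0.000341). MT-ND3, another complex I subunit, had the smallest, with 8848, 8332 and 7909.6 TPM in SAHA libraries, against 7276, 6624 and 6681 TPM in control libraries (log2 change 0.29 ± 0.081, adjusted p = 0.00979). For both genes every SAHA library was above every control library. This held for 12 of the 13 mRNAs, and the exception was MT-ATP6, a subunit of the proton channel of ATP synthase. The share of all genes without overlap was not counted.

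With SAHA, mRNAs of all 4 complexes that have mitochondrially encoded subunits (I, III, IV and V) rose. MT-CO1, the catalytic subunit of cytochrome c oxidase (complex IV), had 17676, 16366 and 14245 TPM in SAHA libraries, against 11422, 9058 and 9731 TPM in control libraries, a 1.60-fold difference of means (log2 change 0.68 ± 0.11, adjusted p = 0.000214). MT-CYB, the one mitochondrially encoded subunit of complex III, had 4501, 4119 and 3714 TPM with SAHA, against 3338, 2684 and 2888 TPM in control (log2 change 0.47 ± 0.095, adjusted p = 0.00123). MT-ND4, a proton-pumping subunit of complex I, had 6073, 5724 and 5189.6 TPM with SAHA, against 4684, 3656 and 3895 TPM in control (log2 change 0.48 ± 0.10, adjusted p = 0.00217). In none of these 3 genes did the groups overlap. MT-ATP8, the small membrane subunit of ATP synthase, differed less, with 10586, 9833 and 8858 TPM with SAHA, against 8340.1, 7893 and 7243 TPM in control (log2 change 0.32 ± 0.093, adjusted p = 0.0117). With libraries rescaled by the median of gene ratios or by the 75th percentile, all 13 changes were still positive but 8 passed the test, and the calls of MT-ND1, MT-ND2, MT-ATP8, MT-ATP6 and MT-ND3 were lost.

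Both rRNAs were higher with SAHA, the large one more than the small one. MT-RNR2 (chrM:1671-3229, plus strand), the rRNA of the large ribosomal subunit, had 11375, 9957 and 10188 TPM in SAHA libraries, against 5249, 4208 and 4667 TPM in control libraries, a 2.23-fold difference (log2 change 1.16 ± 0.10, adjusted p = 1.56e-06). MT-RNR1 (chrM:648-1601, plus strand), the rRNA of the small subunit, had 2126, 1891 and 1704 TPM with SAHA, against 1447, 1444 and 1455 TPM in control, a 1.32-fold difference (log2 change 0.39 ± 0.075, adjusted p = 0.000842). Groups did not overlap for either rRNA. The rRNA genes lie 69 bases apart, with a tRNA gene between them.

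Sonidegib alone was compared with control, and here the mRNAs split. MT-CO1, MT-ND4L, MT-ND4, MT-ND5 and MT-ND6 rose, MT-ND1, MT-ND2, MT-CO2, MT-ATP8, MT-CO3, MT-ND3 and MT-CYB fell, and MT-ATP6 did not pass the test (log2 change 0.045 ± 0.11, adjusted p = 0.75). That is 5 of 13 higher and 7 of 13 lower, against 26.1% and 29.2% of all genes. MT-CYB had the largest fall, with 936, 1043 and 915 TPM in sonidegib libraries, against 3338, 2684 and 2888 TPM in control libraries, 3.08-fold lower (log2 change -1.62 ± 0.095, adjusted p = 1.33e-07). MT-ND6 had the largest rise, with 4857, 5599 and 4558 TPM in sonidegib libraries, against 2551, 2057 and 2352 TPM in control libraries (log2 change 1.11 ± 0.12, adjusted p = 9.95e-06). The groups did not overlap for any of the 12 called mRNAs, and here too the share of all genes without overlap was not counted.

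Subunits of one complex went opposite ways with sonidegib. In complex IV, MT-CO1 had 15804, 17839.5 and 15438 TPM in sonidegib libraries, against 11422, 9058 and 9731 TPM in control libraries (log2 change 0.70 ± 0.11, adjusted p = 0.000194). MT-CO2, the subunit that takes electrons from cytochrome c, averaged 8703 ± 526 TPM with sonidegib and 13193 ± 1386 TPM in control (log2 change -0.60 ± 0.089, adjusted p = 0.000157). These neighbours lie 140 bases apart on the same strand, and MT-CO1 took the place of MT-CO2 as the mRNA with the highest mean TPM in both groups with sonidegib. In complex I, MT-ND4 had 7075, 8235 and 7094 TPM with sonidegib, against 4684, 3656 and 3895 TPM in control (log2 change 0.88 ± 0.10, adjusted p = 3.07e-05). MT-ND5, the subunit at the far end of the membrane arm, had 3212, 3569 and 3081 TPM with sonidegib, against 2183, 1694 and 1900.1 TPM in control (log2 change 0.78 ± 0.11, adjusted p = 8.77e-05). MT-ND2, also of the membrane arm, averaged 1039 ± 116 TPM with sonidegib and 2719 ± 282 TPM in control, 2.62-fold lower (log2 change -1.39 ± 0.10, adjusted p = 7.49e-07). MT-ND3 had 4477, 4938 and 4321 TPM with sonidegib, against 7276, 6624 and 6681 TPM in control (log2 change -0.58 ± 0.081, adjusted p = 9.02e-05). MT-ND5 and MT-CYB, on either side of MT-ND6, stood at a ratio of 3.41 ± 0.0352 with sonidegib and 0.648 ± 0.0144 in control. MT-ND2 and MT-CO2 are named here because of their values.

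By the form of the stop codon at the annotated gene end, 5 of the 6 mRNAs with an incomplete stop fell and 1 rose with sonidegib (MT-ND4). Their median log2 change was -0.53. Of the 7 with a complete stop, 4 rose and 2 fell, with a median of 0.57, beside -0.022 over all genes tested. Of all genes, 26.1% were called higher and 29.2% lower. The grouping goes by gene and not by mRNA end, as the stops of MT-ATP8 and MT-ND4L lie inside the overlapping gene that follows. The stop of MT-ATP6 ends on the first base of MT-CO3, and the split with MT-ATP6 in the incomplete class was not made. MT-ND4L, whose value is the median of 0.57, and MT-ND4 overlap and both rose, yet stand in different classes. This grouping was made with the values known and has no test. Over the 13 mRNAs, the change with sonidegib had a Pearson correlation of 0.172 with gene length, 0.243 with position along the genome and -0.081 with GC content, given as descriptions of genes that share libraries. MT-ATP8 fell (5798, 6988 and 6107 TPM with sonidegib, against 8340.1, 7893 and 7243 TPM in control, log2 change -0.32 ± 0.093, adjusted p = 0.0131), while MT-ATP6 on the same mRNA averaged 1723 ± 131 TPM with sonidegib and 1677 ± 223 TPM in control. The ratio of MT-ATP8 to MT-ATP6 was 3.65 ± 0.0819 with sonidegib and 4.69 ± 0.342 in control, with no overlap.

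Both rRNAs were higher with sonidegib, and MT-RNR2 had the largest change of all members. It had 19197, 22400.2 and 18300.3 TPM in sonidegib libraries, against 5249, 4208 and 4667 TPM in control libraries, 4.24-fold higher (log2 change 2.08 ± 0.10, adjusted p = 3.25e-08). MT-RNR1 had 2172, 2368 and 2276 TPM with sonidegib, against 1447, 1444 and 1455 TPM in control, 1.57-fold higher (log2 change 0.65 ± 0.075, adjusted p = 2.24e-05). Beside these differences stands another between libraries with and without sonidegib. The 17 annotated nuclear genes for 5S rRNA had summed levels of 1488 to 12641 TPM in the 6 libraries with sonidegib and were listed at 0 in all 6 without it, although every cell makes this RNA. The other nuclear rRNA genes summed to 2642 to 14084 TPM with sonidegib and 8924 to 15249 TPM without it. The nuclear noncoding RNAs RN7SK, RN7SL1 and RPPH1 averaged 153, 410 and 48.4 TPM with sonidegib, against 426, 864 and 110 TPM in control. Their ranges with and without sonidegib overlapped. The part of these nuclear RNAs in the mitochondrial differences was not tested. Sonidegib and a difference in library preparation cannot be told apart where libraries with and without sonidegib are compared. Among the libraries with sonidegib these levels varied too. The 5S genes were at 5135, 2984 and 1488 TPM in SAHA plus sonidegib libraries, against 3949, 1763 and 12641 TPM in sonidegib libraries, so sonidegib replicate 3 stood apart. With each library left out in turn, that one included, the log2 change with sonidegib against control was 1.999 to 2.17 for MT-RNR2 and 0.62 to 0.68 for MT-RNR1, called each time.

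**Figure D2:**
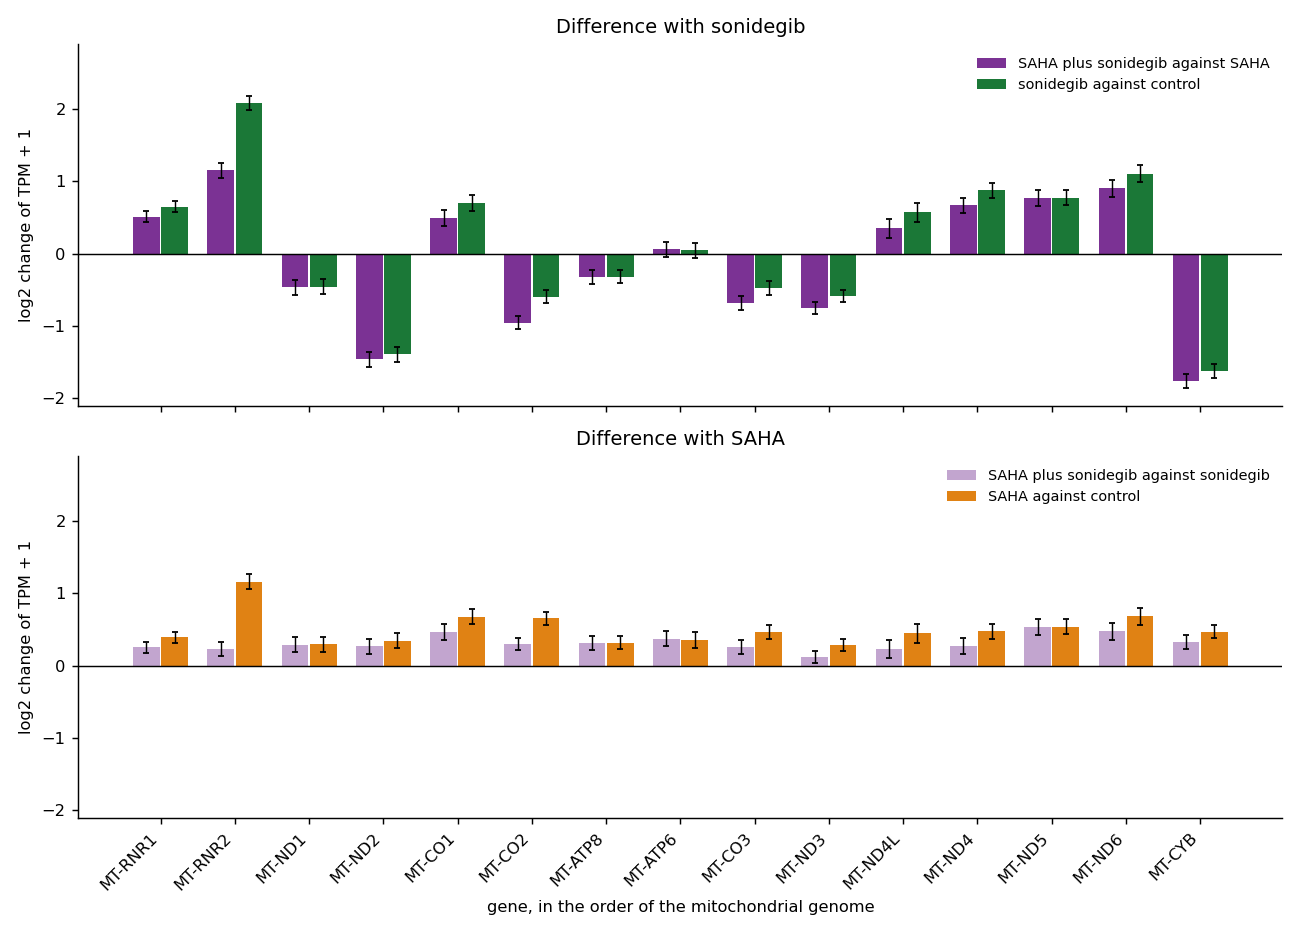
Log2 change of TPM + 1 with its SE for the 15 detected members, in genome order. The upper panel gives SAHA plus sonidegib against SAHA and sonidegib against control, and the lower panel gives SAHA plus sonidegib against sonidegib and SAHA against control. In the upper panel both bars of MT-ND2, MT-CYB and 5 other mRNAs point down, while in the lower panel all bars point up and MT-RNR2 has unequal ones, 0.23 and 1.16.

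Sonidegib was also compared within cells that had SAHA, in libraries that the previous comparison did not use. With SAHA plus sonidegib against SAHA, the mRNAs called were the same 5 higher and the same 7 lower, against 18% and 33% of all genes, with MT-ATP6 again not called. The call of MT-ND4L was narrow (log2 change 0.35 ± 0.13, adjusted p = 0.0406) and was kept in 3 of the 12 fits that left out a library, over which the change was 0.23 to 0.47. Over the 13 mRNAs, the log2 changes of these comparisons had a Pearson correlation of 0.991, and no mRNA differed between them by more than 0.35 (MT-CO2). MT-CYB had 1310.0, 1219 and 1113 TPM in SAHA plus sonidegib libraries, against 4501, 4119 and 3714 TPM in SAHA libraries, 3.39-fold lower (log2 change -1.76 ± 0.095, adjusted p = 1.07e-07). MT-ND2 was 2.75-fold lower with SAHA plus sonidegib than with SAHA (log2 change -1.46 ± 0.10, adjusted p = 7.14e-07). MT-ND6 had 7605, 7433 and 5887 TPM with SAHA plus sonidegib, against 4071, 3643 and 3439 TPM with SAHA (log2 change 0.90 ± 0.12, adjusted p = 5.88e-05). For all 3 genes the groups were apart in every library. The median of all tested genes was -0.12 in this comparison as deposited and -0.0090 with median-of-ratios scaling, and the changes are to be read relative to that.

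The mRNAs of the other complexes kept to that pattern. MT-CO1 had 24821, 22955 and 20103 TPM with SAHA plus sonidegib, against 17676, 16366 and 14245 TPM with SAHA (log2 change 0.49 ± 0.11, adjusted p = 0.00262). MT-ND4 had 10137, 8673 and 8293 TPM with SAHA plus sonidegib, against 6073, 5724 and 5189.6 TPM with SAHA (log2 change 0.67 ± 0.10, adjusted p = 0.00027). MT-ATP8 had 8480.4, 7921 and 7029 TPM with SAHA plus sonidegib, against 10586, 9833 and 8858 TPM with SAHA (log2 change -0.32 ± 0.093, adjusted p = 0.0129). The first 2 were higher and MT-ATP8 was lower with SAHA plus sonidegib, with no overlap. Quantile normalization, which gives all libraries the same value at each rank, turned MT-CO1 to -0.12 and left 3 mRNAs higher. The rRNAs rose here as well, MT-RNR2 to 25672, 23027 and 21434 TPM with SAHA plus sonidegib, against 11375, 9957 and 10188 TPM with SAHA (log2 change 1.15 ± 0.10, adjusted p = 3.04e-06). MT-RNR1 had 2942, 2574 and 2634 TPM with SAHA plus sonidegib, against 2126, 1891 and 1704 TPM with SAHA (log2 change 0.51 ± 0.075, adjusted p = 0.000156).

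SAHA was compared in turn within cells that had sonidegib. With SAHA plus sonidegib against sonidegib all 13 mRNAs had a positive log2 change, from 0.12 to 0.54, and 9 passed the test, against 17.5% of all genes higher and 21% lower. The 4 that did not were MT-ND2, MT-ND3, MT-ND4L and MT-ND4. MT-ND5 had the largest change, with 5223, 4840.0 and 4249 TPM in SAHA plus sonidegib libraries, against 3212, 3569 and 3081 TPM in sonidegib libraries (log2 change 0.54 ± 0.11, adjusted p = 0.00223). MT-ND3 had the smallest, with 5616, 4814 and 4523 TPM with SAHA plus sonidegib, against 4477, 4938 and 4321 TPM with sonidegib (log2 change 0.12 ± 0.081, adjusted p = 0.275). MT-CO1 was higher in every SAHA plus sonidegib library than in any sonidegib library (log2 change 0.47 ± 0.11, adjusted p = 0.00533), whereas those of MT-ND3 overlapped. Many of these calls were narrow: 3 mRNAs passed without sonidegib replicate 1, without sonidegib replicate 3, without SAHA plus sonidegib replicate 1 or with no filter on low genes, and 5 with median-of-ratios or 75th percentile scaling.

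In cells with sonidegib, the SAHA differences of the large and the small rRNA were of similar size, and only that of the small rRNA passed the test. MT-RNR2 had 25672, 23027 and 21434 TPM in SAHA plus sonidegib libraries, against 19197, 22400.2 and 18300.3 TPM in sonidegib libraries, and the difference did not pass the test (log2 change 0.23 ± 0.10, adjusted p = 0.0925). One sonidegib library lay inside the range of the other group. MT-RNR1 had 2942, 2574 and 2634 TPM with SAHA plus sonidegib, against 2172, 2368 and 2276 TPM with sonidegib, with no overlap (log2 change 0.26 ± 0.075, adjusted p = 0.0186), a call that was lost with no filter, with median-of-ratios scaling, and without sonidegib replicate 1 or SAHA plus sonidegib replicate 1. The difference between the SAHA differences with and without sonidegib (the interaction) was tested directly. It was -0.93 ± 0.14 for MT-RNR2 (log2, adjusted p = 0.00051) and -0.13 ± 0.11 for MT-RNR1 (adjusted p = 0.367). MT-RNR2 was the one member called in this test, which called 11.8% of all genes with a positive and 19.7% with a negative value. None of the 13 mRNAs was called by limma, and 1 had an unadjusted p under 0.05, MT-CO2 (interaction -0.35 ± 0.12, adjusted p = 0.0508). MT-CO2 was called with the replicate block (adjusted p = 0.0145), with a pseudocount of 0.1, a filter of 5 TPM or nuclear protein-coding scaling, and without control replicate 1, SAHA replicate 3 or SAHA plus sonidegib replicate 1, and quantile normalization turned it to 0.21.

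SAHA plus sonidegib was last compared with control. Here 6 mRNAs were higher (MT-CO1, MT-ATP6, MT-ND4L, MT-ND4, MT-ND5 and MT-ND6) and 4 were lower (MT-ND2, MT-CO2, MT-ND3 and MT-CYB) with SAHA plus sonidegib than in control, against 29.7% and 34% of all genes. MT-ND6 averaged 6975 ± 946 TPM with SAHA plus sonidegib and 2320.0 ± 248 TPM in control, 3.01-fold higher (log2 change 1.58 ± 0.12, adjusted p = 3.29e-07). MT-CYB averaged 1214 ± 98.8 TPM with SAHA plus sonidegib and 2970.0 ± 334 TPM in control, 2.45-fold lower (log2 change -1.29 ± 0.095, adjusted p = 3.73e-07). MT-ATP8 stood at 7810.2 ± 732 TPM with SAHA plus sonidegib and 7826 ± 552 TPM in control, with overlapping groups (log2 change -0.005 ± 0.093, adjusted p = 0.972). Both rRNAs were higher than in control, MT-RNR2 by 4.97-fold (log2 change 2.31 ± 0.10, adjusted p = 5.41e-09) and MT-RNR1 by 1.88-fold (log2 change 0.90 ± 0.075, adjusted p = 9.49e-07). These comparisons share the control libraries with those of each drug alone. The call of MT-CO2 here, with an adjusted p of 0.0119, was lost with no filter, with median-of-ratios, 75th percentile or nuclear protein-coding scaling, and without control replicate 1 or SAHA plus sonidegib replicate 3.

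rRNAs and mRNAs were then compared within libraries. Summed TPM of the 2 rRNAs came to 29.6, 29.3 and 30.8% of the summed mRNA TPM in SAHA plus sonidegib libraries, 13, 12.1 and 13.5% in SAHA libraries, 32.2, 33.2 and 31.7% in sonidegib libraries and 8.83, 8.95 and 9.35% in control libraries. No group overlapped another. To test single members against the mRNA of the same library, every library was rescaled to an equal mRNA sum and all genes were fitted again. On that scale MT-RNR2 was higher with sonidegib than in control (log2 change 2.07 ± 0.062, adjusted p = 5.88e-10), and higher with SAHA plus sonidegib than with SAHA (log2 change 1.30 ± 0.062, adjusted p = 3.46e-08) and than in control (log2 change 1.96 ± 0.062, adjusted p = 7.61e-10). It was also higher with SAHA than in control (log2 change 0.66 ± 0.062, adjusted p = 2.16e-06), whereas SAHA plus sonidegib against sonidegib did not pass (log2 change -0.12 ± 0.062, adjusted p = 0.153).

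MT-RNR1 was called higher relative to the mRNA sum in each comparison of libraries with and without sonidegib. On that scale it was higher with sonidegib than in control (log2 change 0.64 ± 0.089, adjusted p = 0.000124), and with SAHA plus sonidegib than with SAHA (log2 change 0.66 ± 0.089, adjusted p = 0.000171) and than in control (log2 change 0.55 ± 0.089, adjusted p = 0.000173). It did not pass with SAHA against control (log2 change -0.11 ± 0.089, adjusted p = 0.302) or with SAHA plus sonidegib against sonidegib (log2 change -0.09 ± 0.089, adjusted p = 0.454). The ratio of the large to the small rRNA was 8.60 ± 0.419 with SAHA plus sonidegib, 5.53 ± 0.390 with SAHA, 8.78 ± 0.711 with sonidegib and 3.25 ± 0.358 in control. MT-RNR2 made up most of the rRNA sum, and with the median log2 level of the members of each class in place of sums, the log2 difference in the rRNA to mRNA ratio between sonidegib and control was 0.90, against 1.84 with sums. The last 24 bases of the rRNA genes, from the same source as those of the mRNAs, are shown since a mitochondrial rRNA carries at most a short tail.
MT-RNR2: cacacccacccaagaacagggttt
MT-RNR1: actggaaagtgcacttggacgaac

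**Figure D3:**
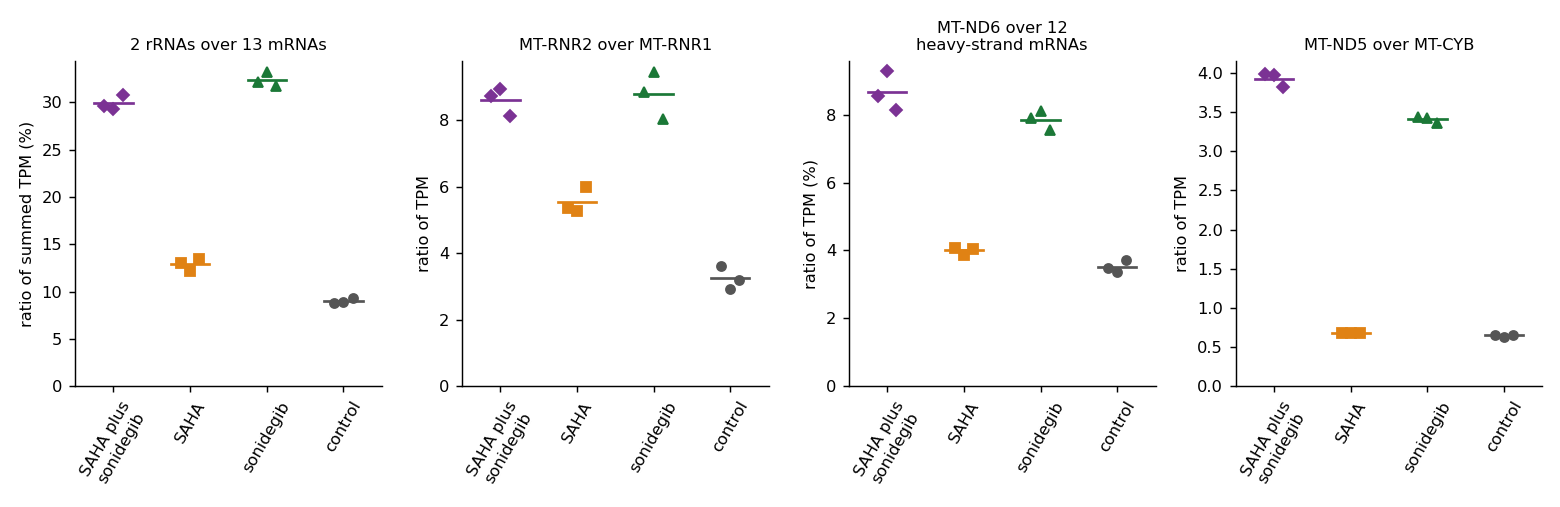
Ratios within each library (3 markers per group, bar at the mean) of summed rRNA to summed mRNA TPM, MT-RNR2 to MT-RNR1, MT-ND6 to the 12 heavy-strand mRNAs, and MT-ND5 to MT-CYB. The 6 libraries with sonidegib lie apart from the 6 without it in all 4 panels, and the rRNA to mRNA ratio is 31.7% to 33.2% with sonidegib and 8.83% to 9.35% in control.

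Among all genes, rescaling to the mRNA sum called 19% higher and 21.7% lower with sonidegib against control, and 11% higher and 44.5% lower with SAHA against control. For SAHA plus sonidegib the shares higher and lower were 13.1% and 43.1% against control, 15.6% and 15.3% against SAHA, and 3.01% and 34.4% against sonidegib. On this scale SAHA against control left 3 mRNAs higher (MT-CO1, MT-CO2 and MT-ND6) and 3 lower (MT-ND1, MT-ATP8 and MT-ND3), with no mRNA beyond -0.22 or 0.18. SAHA plus sonidegib against sonidegib left MT-ND5 higher (0.19) and MT-ND3 lower (-0.23), and the call of MT-ND5 was kept in 5 of the 12 fits that left out a library. The mRNAs called with sonidegib against control numbered 5 higher and 7 lower, as without rescaling. MT-CYB was -1.63 there (adjusted p = 1.17e-08) and MT-ND2 -1.40 (adjusted p = 7.99e-08). With SAHA plus sonidegib against SAHA, rescaling gave 6 higher and 6 lower. MT-ATP6 was called higher (0.21, limma, adjusted p = 0.0487), a call kept in 1 of the 12 fits that left out a library. MT-ATP8 lost its call (-0.18, limma, adjusted p = 0.0583).

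Heavy-strand and light-strand mRNA were compared through MT-ND6, the one light-strand mRNA. Its TPM came to 8.54, 9.29 and 8.14% of the sum of the 12 heavy-strand mRNAs in SAHA plus sonidegib libraries, 4.08, 3.88 and 4.05% in SAHA libraries, 7.89, 8.11 and 7.56% in sonidegib libraries and 3.48, 3.37 and 3.72% in control libraries. All 6 libraries with sonidegib were above all 6 without it. In the fit rescaled to the mRNA sum, MT-ND6 was higher with sonidegib than in control (log2 change 1.10 ± 0.071, adjusted p = 4.94e-07), and higher with SAHA plus sonidegib than with SAHA (log2 change 1.05 ± 0.071, adjusted p = 1.1e-06) and than in control (log2 change 1.23 ± 0.071, adjusted p = 2.93e-08). With SAHA against control the difference was near the threshold (log2 change 0.18 ± 0.071, adjusted p = 0.0471), and it was lost without any one of 10 of the 12 libraries. SAHA plus sonidegib against sonidegib did not pass (log2 change 0.13 ± 0.071, adjusted p = 0.172). MT-ND5, the heavy-strand gene that adjoins MT-ND6, was also higher on this scale with sonidegib against control (0.76) and with SAHA plus sonidegib against SAHA (0.92) and against control (0.95). It was not called with SAHA against control (0.036, adjusted p = 0.664). MT-ND6 over MT-ND5 was 1.46 ± 0.0751 with SAHA plus sonidegib, 1.33 ± 0.0314 with SAHA, 1.52 ± 0.0453 with sonidegib and 1.21 ± 0.0354 in control. As the strand setting was not given, MT-ND6 values may hold reads of RNA from the opposite strand. The comparison is therefore of gene values and cannot separate the strands. The next gene on the strand of MT-ND5 is MT-CYB, which starts at chrM:14747, beyond MT-ND6. The part of reads shared between MT-ND5 and MT-ND6 in the MT-ND6 differences was not tested.

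The make-up of mitochondrial mRNA differed mainly between libraries with and without sonidegib. MT-CO1 was 25.9 ± 0.327% of the mRNA sum with SAHA plus sonidegib, 16.6 ± 0.458% with SAHA, 23.8 ± 0.0571% with sonidegib and 14.8 ± 0.369% in control. MT-CO2 was 12.3 ± 0.364%, 21.5 ± 0.525%, 12.7 ± 0.284% and 19.3 ± 0.230% in these groups. MT-CYB, which is all of the mitochondrial share of complex III, was 1.39 ± 0.0338% with SAHA plus sonidegib, 4.25 ± 0.0699% with SAHA, 1.41 ± 0.00725% with sonidegib and 4.35 ± 0.0895% in control. It ranked last of 13 by mean TPM in both groups with sonidegib and 8 of 13 in both without it. Summed over subunits, complex I made up 40.7 ± 0.0409% with sonidegib and 34.0 ± 0.803% in control, while complex IV made up 46.3 ± 0.462% with sonidegib and 47.7 ± 0.446% in control. The share of complex IV differed less than those of MT-CO1 and MT-CO2, which moved opposite ways.

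**Figure D4:**
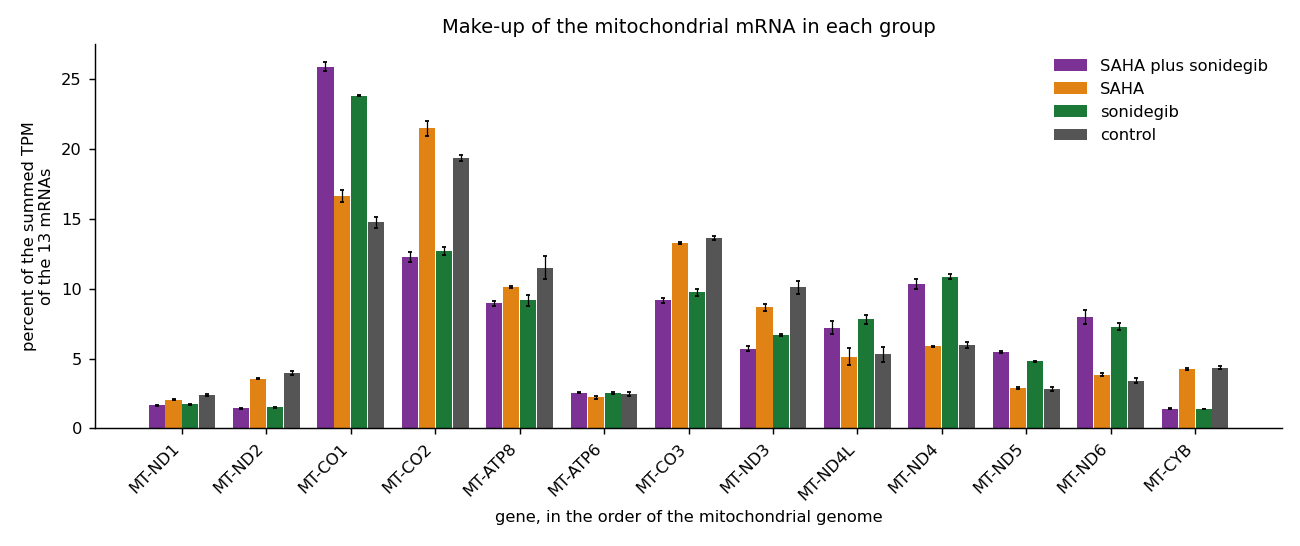
Mean percent of the summed mRNA TPM held by each of the 13 mRNAs in each group, with SD over 3 libraries, in genome order. MT-CO1 holds 23.8% with sonidegib and 14.8% in control, and MT-CYB holds 1.41% with sonidegib and 4.35% in control.

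Copies of mitochondrial genes in the nuclear genome can take or give reads. The table held 407 such rows, of which 54 were above 0 and 5 reached a mean of 1 TPM. Their sum averaged 1350.3 ± 83.8 TPM with SAHA plus sonidegib, 962 ± 108 TPM with SAHA, 961 ± 62.9 TPM with sonidegib and 692 ± 134 TPM in control, about 1.01% of the members' own sum. MTATP6P1 on chromosome 1, a pseudogene 98.5% identical to MT-ATP6, was listed at 32.2 ± 3.22% of the TPM of MT-ATP6 with SAHA plus sonidegib and 27.0 ± 2.85% in control, so the level of MT-ATP6 is the least certain of the mRNAs in this respect. MTCO1P12 on chromosome 1, 98.6% identical to MT-CO1, was at 1.87% of MT-CO1. MTRNR2L1 on chromosome 17, 88.6% identical to MT-RNR2, was at 0.787% of it.

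Nuclear genes that make and process these transcripts were read in the same fit. Of 9 genes of the transcription machinery, 1 was higher and 6 were lower with sonidegib than in control, against 26.1% and 29.2% of all genes (median log2 change -0.59, against -0.022 over all genes). With SAHA against control 0 were higher and 1 lower, against 31.8% and 26.9% (median -0.032, against 0.045). TFAM averaged 11.1 ± 1.73 TPM with sonidegib and 28.7 ± 2.74 TPM in control (log2 change -1.30, adjusted p = 0.00011). TEFM, the elongation factor, was -0.82 with sonidegib against control (adjusted p = 0.00639), and TFB2M was -0.65 with sonidegib and -0.70 with SAHA, each against control and each called. POLRMT, the polymerase, was not called with sonidegib or with SAHA, at -0.028 and -0.069. MTERF1, a factor that binds downstream of the rRNA genes, fell with sonidegib (-0.60, adjusted p = 0.0173). TFB1M, the methyltransferase of the small-subunit rRNA, was the one that rose (0.51, adjusted p = 0.0301). With SAHA plus sonidegib against SAHA, 0 of these genes were higher and 2 lower, against 18% and 33% of all genes (median -0.27). TFAM averaged 16.9 ± 3.85 TPM with SAHA plus sonidegib and 21.7 ± 5.19 TPM with SAHA, and was not called (-0.34, adjusted p = 0.149).

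Genes of RNA end processing were mostly lower with sonidegib. Of the 14, 0 were higher and 11 lower with sonidegib than in control (median -0.65), against 26.1% and 29.2% of all genes. With SAHA plus sonidegib against control 1 was higher and 12 lower (median -0.55), against 29.7% and 34%, and with SAHA plus sonidegib against SAHA 2 were higher and 8 lower (median -0.35), against 18% and 33%. TRMT10C, the methyltransferase subunit of mitochondrial RNase P, averaged 11.1 ± 1.52 TPM with sonidegib and 30.2 ± 3.17 TPM in control (log2 change -1.38, adjusted p = 9.99e-06). FASTKD5, which acts on mRNA ends that no tRNA marks, averaged 9.86 ± 0.535 TPM with sonidegib and 20.3 ± 0.549 TPM in control (-0.97), yet it rose with SAHA (0.57, adjusted p = 9.08e-05). With SAHA against control the list had 1 higher and 4 lower (median -0.12), against 31.8% and 26.9% of all genes, and FASTKD2 and TRNT1 had the largest falls, -0.90 and -0.85. Of the 8 genes of mRNA stability and decay, 0 were higher and 4 lower with sonidegib than in control, and 2 higher and 4 lower with SAHA. SLIRP, which with LRPPRC holds mitochondrial mRNAs, fell with sonidegib (-0.98, adjusted p = 1.81e-06), whereas LRPPRC was not called (-0.059). LRPPRC fell with SAHA (-0.32, adjusted p = 0.0161), in cells where all 13 mRNAs were higher.

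Beside the rRNAs, the genes that modify and assemble them were counted. The shares of all genes called higher and lower, to be read beside each count here, were 26.1% and 29.2% with sonidegib and 31.8% and 26.9% with SAHA. Of 17 such genes, 4 were higher and 9 lower with sonidegib (median -0.44), and 1 higher and 9 lower with SAHA (median -0.30), each against control. MRM1, a methyltransferase of the large-subunit rRNA, fell to 2.18 ± 0.140 TPM with sonidegib, against 7.85 ± 0.277 TPM in control (-1.48), and it also fell with SAHA (-1.36). NOA1, a GTPase of ribosome assembly, rose with sonidegib (0.90). Of 11 genes of mitochondrial DNA replication and upkeep, 4 were higher and 4 lower with sonidegib, and 3 higher and 8 lower with SAHA, so apart from the 8 these counts were near the shares of all genes. SSBP1, the single-stranded DNA binding protein, fell most with sonidegib (-1.53), and TOP1MT, the mitochondrial topoisomerase, fell most with SAHA (-1.01). Of 8 tested regulators of mitochondrial biogenesis, 0 were higher and 3 lower with sonidegib, and 1 higher and 3 lower with SAHA. MYC fell most with SAHA (-1.28), PPARGC1B was not called in either comparison, and PPARGC1A, a coactivator of respiratory genes, was below 1 TPM on average and was not tested.

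**Figure D5:**
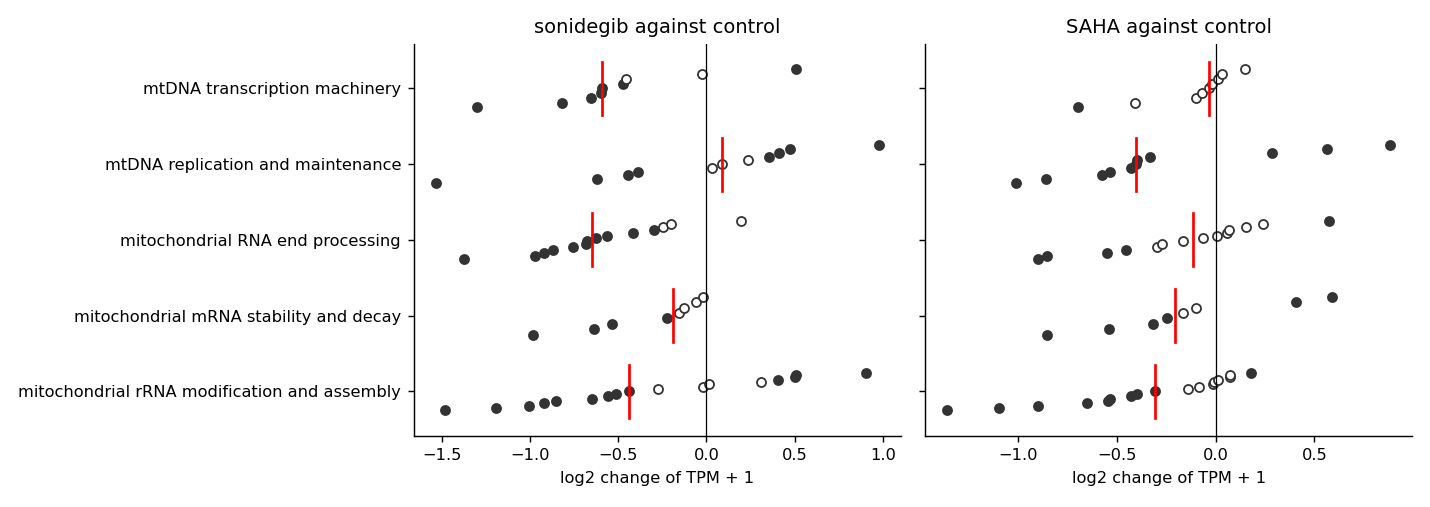
Log2 change of TPM + 1 of each tested gene in 5 lists of nuclear genes for mitochondrial DNA and RNA, with sonidegib against control on the left and SAHA against control on the right. Filled circles passed the test, open circles did not, and red bars are medians, which for RNA end processing are -0.65 and -0.12.

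Lists of chosen nuclear subunits of the respiratory complexes were counted beside the mitochondrial ones, so the counts are of these lists and not of whole complexes. Of all genes, 31.8% were higher and 26.9% lower with SAHA against control, and 26.1% and 29.2% with sonidegib against control, and several of the small lists had counts near these shares. Against control, complex I had 1 of 7 genes higher and 4 lower with SAHA, complex III had 0 of 6 higher and 3 lower, complex IV 1 of 10 higher and 2 lower, and complex V 0 of 10 higher and 6 lower. Complex II, which has no mitochondrially encoded subunit, had 1 of 4 higher and 2 lower. The fall was steepest for CYC1, the cytochrome c1 of complex III, at -0.96, while MT-CYB of the same complex was 0.47. With sonidegib against control, complex I had 1 higher and 5 lower, complex II 1 higher and 2 lower, complex III 1 higher and 3 lower, complex IV 0 higher and 1 lower, and complex V 1 higher and 7 lower. UQCRC2, a core subunit of complex III, averaged 118 ± 2.75 TPM with sonidegib and 68.5 ± 2.60 TPM in control (0.78, adjusted p = 9.22e-06), opposite to MT-CYB. In complex IV the 10 listed nuclear subunits had a median of -0.052 with sonidegib.

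Marker genes were read as a check of the cell line label. EGFR, a gene with high expression in this line, lay between 516 and 678 TPM, and PGR was listed at 0 in all 12 libraries. The 10 genes read as epithelial and line markers, with VIM, ESR1, PGR and ERBB2 among them, summed to 4848 to 5322 TPM with sonidegib and 8313 to 9985 TPM without it. Most of the sum was KRT8, KRT18 and KRT19, at 1864, 1458 and 4248 TPM on average in control. Of the 8 tested, 2 were higher (ERBB2 and VIM) and 4 lower (these keratins and EPCAM) with sonidegib than in control. The shares of all genes were 26.1% and 29.2%. Of the 5 leukocyte markers, CD14 lay between 207 and 336 TPM, and the other 4 summed to at most 0.220 TPM. Fibroblast and endothelial markers (5 genes) summed to at most 13.7 TPM, nearly all of it COL1A1, and erythroid markers (4 genes) to at most 3.78 TPM.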

How the data were processed

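The table held TPM values for 59324 genes in 12 libraries of MDA-MB-468, as deposited by the authors. Bowtie2 2.4.1 and GRCh38 are named in the submitters' processing notes, and the counting step, strand setting, RNA selection and depth are not given in the sources used here. Column sums lay between 999999 and 1000001, and 20125 to 21402 genes were above 0. Of the gene IDs, 58611 matched GENCODE release 29, which gave positions and sequences of the mitochondrial genes. Values were taken as log2(TPM + 1), so fold changes of low genes are understated. Genes whose mean reached 1 TPM (13937) were fitted with limma 3.58.1 (R 4.3.3, 4 group means, 8 residual degrees of freedom, trend in the variance), with Benjamini-Hochberg adjustment over all of them and a threshold of 0.05. The fit was tested on simulated data. For members relative to mitochondrial mRNA, each library was rescaled to the same summed TPM of the 13 mRNAs, and all genes were fitted again. Sums and ratios of members have no test.

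The members and the lists of nuclear genes were chosen with earlier results of these data known. Values per library are given for both rRNAs, MT-ND6, the mRNA with the highest mean TPM in each complex and the mRNAs with the largest and smallest change in each comparison. Named nuclear genes are POLRMT, TFAM, TFB2M, TEFM, LRPPRC, SLIRP, MTERF1, PPARGC1A and PPARGC1B, and some of those with the largest called rise or fall in a list. Other pseudocounts, filters, scalings, a replicate block and leaving out each library were tried. Replicate numbers were not taken as pairs, since deviations of samples with the same number were only weakly correlated. With 3 libraries per group this check cannot exclude pairing.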

Additional observations from a re-analysis of the deposited data

Results flagged for a closer look

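MT-RNR2, the rRNA of the large mitochondrial ribosomal subunit, had a SAHA difference that was smaller in cells with sonidegib than in cells without it. It was 0.23 ± 0.10 on the log2 scale with SAHA plus sonidegib against sonidegib and 1.16 ± 0.10 with SAHA against control. The interaction was -0.93 ± 0.14 (limma, adjusted p = 0.00051). The lowest sonidegib library was already at 18300.3 TPM, and the highest SAHA library at 11375 TPM. No explanation was tested.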

How the results depend on the processing

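Counts of called mRNAs moved by over 1.5 times as follows. SAHA against control had 13 higher, and 8 with median-of-ratios or 75th percentile scaling. SAHA plus sonidegib against sonidegib had 9 higher, 3 with no filter, 5 with median-of-ratios or 75th percentile scaling, and 3 to 11 when single libraries were left out. SAHA plus sonidegib against SAHA had 5 higher, and 3 with quantile normalization. The interaction had 0 negative calls, and 1 with a pseudocount of 0.1, a filter of 5 TPM, quantile normalization, nuclear protein-coding scaling or the replicate block (0 to 1 when single libraries were left out), and 0 positive calls, and 1 with quantile normalization. Relative to mRNA, MT-ND6 with SAHA against control stayed at 0.18 but lost its call with a pseudocount of 0.1 (adjusted p = 0.0578, limma) and with the replicate block (adjusted p = 0.0538), and ranged over 0.15 to 0.22 when single libraries were left out. The log2 differences in the rRNA to mRNA ratio became 0.33 with SAHA, 0.90 with sonidegib and 0.80 with SAHA plus sonidegib, each against control, and 0.48 with SAHA plus sonidegib against SAHA, with medians of members in place of sums, whose values were 0.51, 1.84, 1.73 and 1.22.

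Directions turned for values near 0 in most cases. MT-ATP8 with SAHA plus sonidegib against control was 0.047, 0.073 and 0.067 with median-of-ratios, 75th percentile and nuclear protein-coding scaling, and -0.066 to 0.069 when single libraries were left out. Quantile normalization gave -0.0042 for MT-ATP6 with sonidegib against control, -0.14 for MT-ATP6 and -0.12 for MT-CO1 with SAHA plus sonidegib against SAHA, and 0.21 for the interaction of MT-CO2. Leaving out single libraries moved MT-ATP6 over -0.024 to 0.15 with sonidegib against control and -0.028 to 0.13 with SAHA plus sonidegib against SAHA. Relative to the geometric mean of mRNAs, MT-CO3, MT-ND4 and MT-CYB with SAHA against control were 0.0019, 0.015 and 0.0076, and MT-CYB with SAHA plus sonidegib against sonidegib was 0.0056 (-0.031 to 0.0035 when single libraries were left out). Leaving out single libraries gave -0.15 to 0.018 for MT-ND4L with SAHA and -0.0089 to 0.060 for MT-ATP6 with sonidegib, both relative to mRNA and against control. The cause of these turns was not tested.

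Samples with the same replicate number had correlated deviations of -0.059 to 0.11, so the numbers were not taken as pairs. With the replicate block, the interaction of MT-CO2 was called (-0.35, adjusted p = 0.0145), as was MT-CO3 with SAHA plus sonidegib against control (adjusted p = 0.0156). Of single members, 1649 of the values under alternatives kept direction and call, 108 lost a call, 20 gained one and 14 turned. Nothing can be said of the 22 tRNAs listed at 0, and whether read depth, their short length or the counting gave the zeros was not tested.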
